A study of Bos taurus with 10 samples.

Results

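Mucins are large glycoproteins whose serine and threonine residues carry dense O-linked sugars. The gel-forming mucins are secreted and polymerize into mucus, while the transmembrane mucins stay on the apical surface of epithelial cells, where they form a coat and can pass signals inward. The trophectoderm, the outer cell layer of the blastocyst, is the first epithelium of the embryo, and MUC1 is known as a component of the apical surface that meets the uterus. The genes described here were MUC19 and 7 further mucins given by name, MUC1, MUC4, MUC12, MUC13, MUC15, MUC16 and MUC20. MUC19 was chosen by its rise in the comparison below, so its values are given as a description with no test. Of the 8 members, 7 were rows of the table of 20112 genes, and MUC12 was not analysed here. The table held 13 mucin genes in all, and the 6 that were not members, MUC2, MUC3A, MUC5AC, MUC6, MUC21 and LOC789503, were read beside them. RefSeq names the gene with the identifier of LOC789503 as MUC5B, and it is called MUC5B from here on. MUC5B was also known beforehand as a large rise and gets no test.

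Each library came from 1 early blastocyst of Bos taurus. The labels give its age as 7.0 days after fertilization, and the study's methods name a slightly later collection time. The 5 WT embryos were injected as zygotes with mRNA of BE3, a cytosine base editor, and the 5 SOX2 KO embryos with the same mRNA plus sgRNAs against SOX2, so both groups carried the editor. The guides were designed to create premature stop codons, and the study's methods describe genotyping of each sequenced blastocyst from part of its cDNA. Some injected embryos of such experiments are mosaic. The embryos are called nc1 to nc5 (WT) and ko1 to ko5 (SOX2 KO) after the table's columns. Values are normalized read counts, which are read counts divided by a size factor of each library. They are not divided by gene length, so levels are compared between embryos for the same gene and not between genes.

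Reads on genes numbered 2223670 to 5134855 per WT library and 2578284 to 4337342 per SOX2 KO library (exact permutation test, two-sided, p = 0.349, n = 5 per group). Genes with at least 1 read numbered 15919 to 18092 per WT embryo, against 17987 to 19813 per SOX2 KO embryo (exact permutation test, two-sided, p = 0.0159). RN18S1, an 18S ribosomal RNA gene, held 26.4% to 37.0% of a WT library, against 32.5% to 45.0% of a SOX2 KO library (exact permutation test, two-sided, p = 0.0635). SOX2 itself had values of 56.5 to 93.4 in the WT embryos, which overlapped with 26.4 to 82.1 in the SOX2 KO embryos. A stop codon need not lower the level of a transcript, so this value does not check the labels. The trophectoderm keratin KRT18 was abundant in every embryo, at 9100 ± 1394 in WT and 15124 ± 2419 in SOX2 KO (mean ± SD, n = 5 each).

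MUC19 encodes a gel-forming mucin known from salivary and other exocrine glands. Its normalized read count was 3.05 in nc1, 0 in nc2, 3.98 in nc3, 0.777 in nc4 and 3.54 in nc5. In SOX2 KO it was 80.2 in ko1, 10.6 in ko2, 76.7 in ko3, 13.1 in ko4 and 95.7 in ko5. Every SOX2 KO embryo was above every WT embryo, and the SOX2 KO embryos fell into a high set of 3 and a low set of 2. The group means were 2.27 ± 1.77 in WT and 55.3 ± 40.3 in SOX2 KO (SD, n = 5 each). These values rest on 15 reads over the WT group and 245 over the SOX2 KO group, and 0 reads in nc2 allow a normalized read count of up to 4.45. The ratio of the summed reads per size factor was 21.2.

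On the log2(normalized read count + 1) scale MUC19 was 3.85 higher in SOX2 KO (SE 0.63). This scale understates the change of a gene with so few reads in WT. The value lay between 3.48 and 4.29 when any 1 embryo was left out. Among 151 genes that were called higher, had no overlap between groups and reached a mean of at least 50 in SOX2 KO, MUC19 had rank 2. MUC19 was chosen for its rise, so this rank is a description. A place among the 151 is no test of MUC19 or MUC5B. HSD3B1, a steroid dehydrogenase, had the largest value at 4.04, LOC789126 followed MUC19 at 3.84 and MUC5B stood at 3.68. QSOX1, an enzyme that forms disulfide bonds, was the last of the 5 largest at 3.40, and MUC1 came next at 3.37.

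The low and high SOX2 KO embryos also differed in measures of the library. The embryos ko2 and ko4, with the low MUC19 values, had 17987 and 18125 genes with a read and RN18S1 shares of 34.6% and 32.5%. The embryos ko1, ko3 and ko5 had 19022 to 19813 genes with a read and RN18S1 shares of 36.8% to 45.0%. With the RN18S1 share as a covariate, the log2 difference of MUC19 was 2.67. The part of these measures in the spread of MUC19 was not tested. Within WT, nc3 had the most genes with a read (18092) and the highest RN18S1 share (37.0%). Both were within the range of the SOX2 KO embryos. The MUC19 value of nc3, 3.98, was also the highest of WT.

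**Figure D1:**
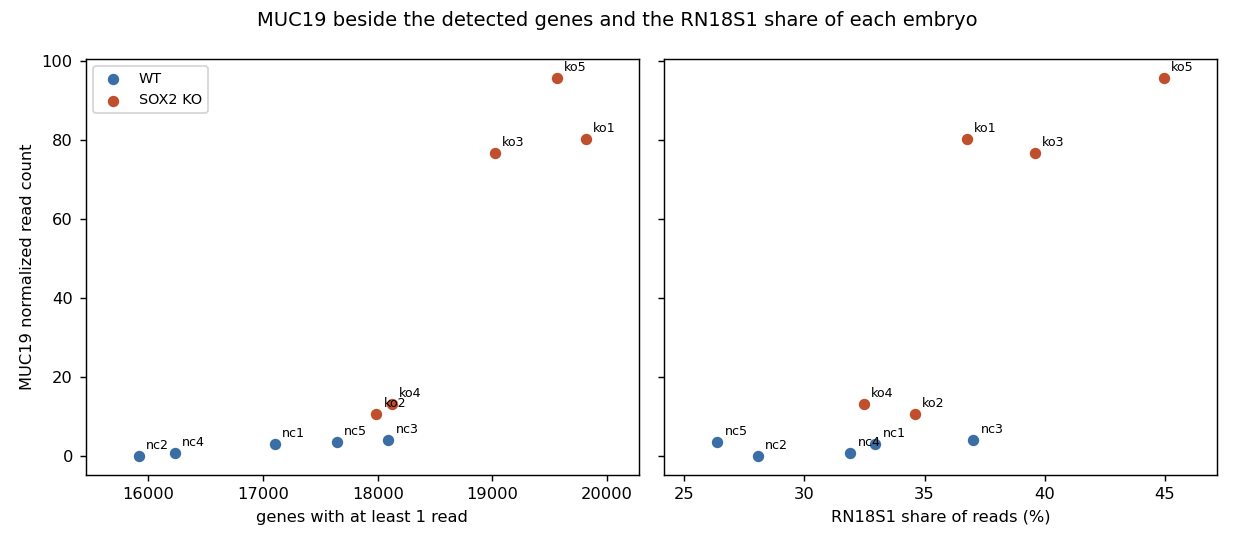
MUC19 normalized read count of each embryo (y axis, linear) against the number of genes with at least 1 read (left) and the share of reads on RN18S1 in percent (right); each point is 1 embryo, WT in blue and SOX2 KO in red. The embryos ko2 and ko4 lie at 10.6 and 13.1 and have the fewest genes with a read and the lowest RN18S1 shares of the SOX2 KO group, while ko1, ko3 and ko5 lie between 76.7 and 95.7.

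The other members are transmembrane mucins and entered by family name. Of the 6 tested, MUC1 and MUC16 were called higher in SOX2 KO and 0 were called lower (limma, an adjusted p of 0.05 or less with at least a 2-fold difference). Across all 20056 genes tested, 8.93% were called higher and 1.16% lower, 1792 and 232 genes. Quantile normalization gave 638 higher and 469 lower. The median log2 difference of all genes was 0.25, and that of the 6 members other than MUC19 was 1.46. That median was −0.02 after quantile normalization and 0.34 after scaling by the median ratio of the abundant genes, so the differences below are read against a background that moves with the scaling. In a whole embryo, more cells of a type and more RNA per cell cannot be told apart.

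MUC1 encodes a cell surface mucin that is cleaved and shed by proteases such as ADAM17. Its normalized read count was 16.8, 14.8, 10.9, 50.5 and 66.1 in nc1 to nc5. It was 506, 314, 276, 104 and 296 in ko1 to ko5. The lowest SOX2 KO embryo, ko4, was above the highest WT embryo, nc5. MUC1 rose from 31.8 ± 24.9 to 299 ± 143 (SD, n = 5 each), a log2 difference of 3.37 (SE 0.42, 95% interval 2.49 to 4.25, limma adjusted p = 6.39e-05). It had 220 reads in WT and 1312 in SOX2 KO, and its call held under each of the 23 alternatives, with log2 differences from 3.03 to 3.71.

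MUC16 encodes a very long mucin, the carrier of the CA125 antigen, and it binds mesothelin. Its values were 13.0, 7.42, 26.8, 5.44 and 11.2 in nc1 to nc5, and 105, 35.7, 68.6, 30.4 and 98.0 in ko1 to ko5. The groups did not overlap, and ko2 and ko4 were again the lowest SOX2 KO embryos. MUC16 rose from 12.8 ± 8.41 to 67.5 ± 34.3 (SD, n = 5 each), by 2.33 on the log2 scale (SE 0.41, 95% interval 1.48 to 3.19, limma adjusted p = 0.00148). With the RN18S1 share as a covariate the difference was 1.54 and the adjusted p was 0.108. MUC1 and MUC16 were the 2 of these 6 members with every SOX2 KO embryo above every WT embryo, which 6.41% of all genes tested showed.

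**Figure D2:**
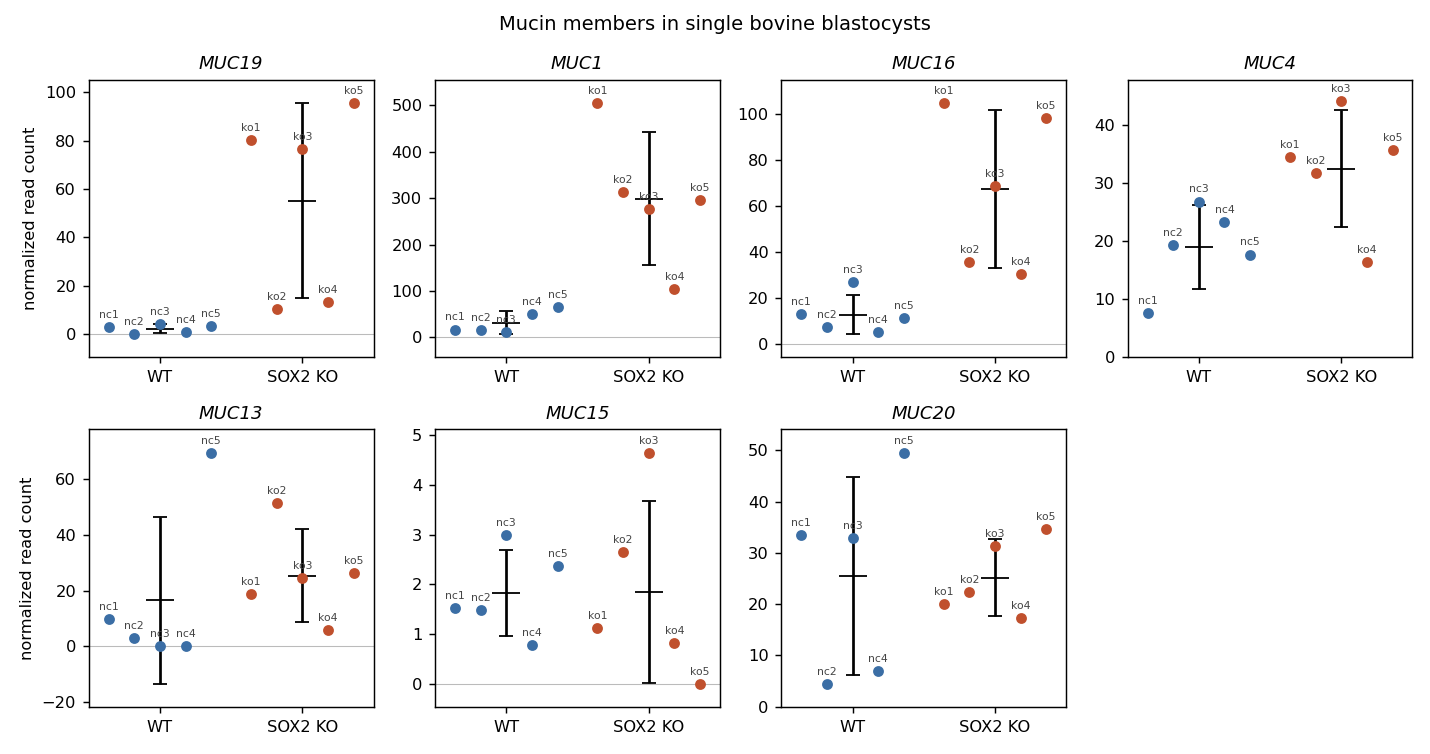
Normalized read count (y axis, linear, own scale per gene) of the 7 members in each embryo; points are embryos with their names, the horizontal mark is the mean and the bars are the SD (n = 5 per group). MUC19, MUC1 and MUC16 have all SOX2 KO embryos above all WT embryos, while MUC4, MUC13, MUC15 and MUC20 overlap.

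The remaining 4 members did not pass the test. MUC4, a membrane mucin that interacts with the receptor ERBB2, had 7.63, 19.3, 26.8, 23.3 and 17.7 in nc1 to nc5 and 34.5, 31.7, 44.2, 16.4 and 35.7 in ko1 to ko5. All SOX2 KO embryos other than ko4 were above all WT embryos. The means were 19.0 ± 7.27 and 32.5 ± 10.1, a log2 difference of 0.78 (SE 0.36, 95% interval 0.04 to 1.53, limma adjusted p = 0.138). MUC4 passed without ko4 (1.0, adjusted p = 0.0452).

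MUC13, a mucin of the intestinal and other epithelial surfaces, had 9.92, 2.97, 0, 0 and 69.6 in nc1 to nc5 and 18.9, 51.5, 24.4, 5.75 and 26.5 in ko1 to ko5. The WT embryo nc5 was above every SOX2 KO embryo and held 118 of the 133 WT reads. The means were 16.5 ± 30.0 and 25.4 ± 16.7, with a log2 difference of 2.13 (SE 0.87, 95% interval 0.32 to 3.94, limma adjusted p = 0.0988). MUC13 passed without nc5 (3.09, adjusted p = 0.0114) and without ko4 (2.55, adjusted p = 0.0463). On the recovered reads edgeR gave a log2 difference of 0.37.

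MUC20, a mucin that interacts with the receptor MET, had 33.6, 4.45, 32.8, 6.99 and 49.6 in nc1 to nc5. The SOX2 KO embryos, at 20.0, 22.4, 31.4, 17.3 and 34.6, all lay inside the WT range. The means were 25.5 ± 19.3 and 25.1 ± 7.48, and the log2 difference was 0.40 (SE 0.50, 95% interval −0.65 to 1.45, limma adjusted p = 0.607), with the opposite sign in edgeR, DESeq2 and the covariate alternative. MUC15 was near the limit of detection, with 1 to 4 reads per WT embryo and 0 to 4 per SOX2 KO embryo. Its means were 1.83 ± 0.856 and 1.85 ± 1.84, and its log2 difference was −0.18 (SE 0.56, 95% interval −1.34 to 0.98, limma adjusted p = 0.851). The ratio of the summed reads per size factor was 0.944 (exact 95% interval 0.330 to 2.58, counting error only). A change of MUC15 within that interval was not detectable at this depth.

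The gel-forming mucins are MUC2, MUC5AC, MUC5B, MUC6 and MUC19, and all 5 were in the table. Of the other 3, MUC2, MUC5AC and MUC6 were all called higher by limma and by edgeR, and DESeq2 called 2. MUC2 passed the filter on low values (a mean of at least 1 over all embryos) only through its SOX2 KO values. Its call is therefore a description, as is every count of calls that includes it. Among the 14829 genes whose mean lay within the range of the mucins (1.84 to 165), 10.7% were called higher. MUC2, the main mucin of intestinal mucus, had reads in nc3 (2.98) and nc4 (0.777) and none in the other 3 WT embryos. In SOX2 KO it was 45.7, 9.24, 15.1, 8.21 and 25.4 in ko1 to ko5, all above the highest WT embryo. MUC2 rose from 0.752 ± 1.29 to 20.7 ± 15.5 (SD, n = 5 each), by 3.60 on the log2 scale (SE 0.59). With 4 reads in WT and 93 in SOX2 KO, the ratio was 30.2 (exact 95% interval 11.4 to 113, counting error only).

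MUC5B, a mucin of airway mucus, was 3.82, 4.45, 10.9, 0.777 and 0.590 in nc1 to nc5 and 94.6, 47.5, 40.7, 20.5 and 72.6 in ko1 to ko5. The groups did not overlap, with means of 4.11 ± 4.19 and 55.2 ± 28.9 and a log2 difference of 3.68 (SE 0.54). MUC5AC, the mucin of airway goblet cells and the gastric surface, was 4.58, 0, 6.96, 0 and 0 in nc1 to nc5. In SOX2 KO it was 55.7, 2.64, 33.7, 5.75 and 32.3, so that ko2 and ko4 lay below nc3. MUC5AC rose from 2.31 ± 3.27 to 26.0 ± 22.0, by 3.03 (SE 0.78, limma adjusted p = 0.0163). The call was lost without ko1 (adjusted p = 0.0564), without ko5 (0.0552) and with DESeq2 (0.0539).

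MUC6, a mucin of gastric glands, was 2.29, 0, 3.98, 3.11 and 1.77 in nc1 to nc5 and 34.5, 9.24, 6.98, 3.29 and 31.1 in ko1 to ko5. The embryo ko4 lay below nc3. MUC6 rose from 2.23 ± 1.50 to 17.0 ± 14.6, by 2.21 (SE 0.63, limma adjusted p = 0.0262). Its call was lost without nc2 (adjusted p = 0.0673), ko1 (0.0845) or ko5 (0.0910), with a pseudocount of 0.1 (0.0552) and after quantile normalization (0.0789).

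Among the transmembrane mucins that were not members, MUC3A, an intestinal brush border mucin, was 0, 2.97, 1.99, 0 and 0.590 in nc1 to nc5. It was 22.3, 14.5, 9.30, 3.29 and 9.22 in ko1 to ko5, with no overlap. MUC3A rose from 1.11 ± 1.32 to 11.7 ± 7.11, by 2.62 (SE 0.59, limma adjusted p = 0.00831), from 5 reads in WT and 51 in SOX2 KO. MUC21 lay between 1.48 and 4.13 in WT and between 0 and 13.4 in SOX2 KO, with 0 reads in ko4 and ko5. Its log2 difference was 0.05 (SE 0.69, limma adjusted p = 0.969), and it was below 0 with a pseudocount of 0.1, after quantile normalization and without nc1, nc2, ko1, ko2 or ko3.

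**Figure D3:**
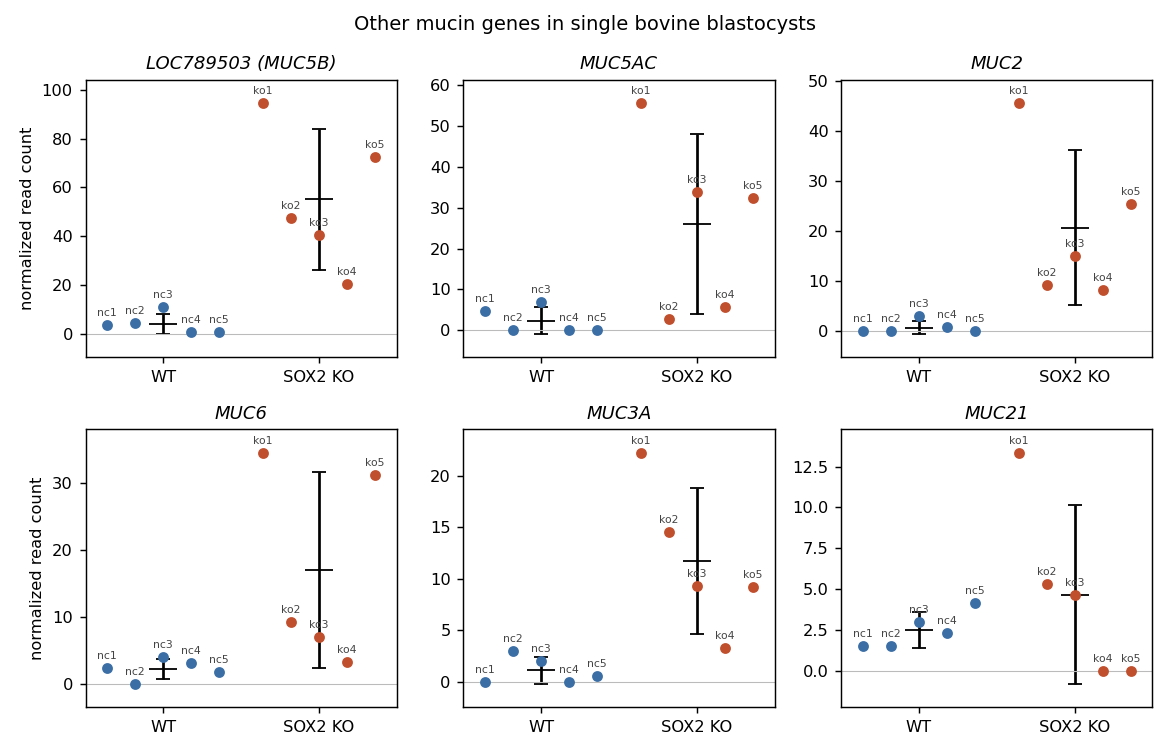
Normalized read count (y axis, linear, own scale per gene) of the 6 mucin genes that were not members, in each embryo; points are embryos, the horizontal mark is the mean and the bars are the SD (n = 5 per group). In LOC789503 (MUC5B), MUC2 and MUC3A all SOX2 KO embryos lie above all WT embryos, and ko4 is the lowest SOX2 KO embryo in these 3 genes and in MUC6.

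Over the 11 mucins other than MUC19 and MUC5B, 6 were called higher, 0 lower, and 4 had no overlap between groups. Over all genes tested, 8.93% were called higher, 1.16% lower, and 6.41% had every SOX2 KO embryo above every WT embryo. MUC2, which passed the filter only through SOX2 KO, is 1 of both the 6 and the 4, so these counts are a description. Of these 6 genes, MUC1 alone was called with the RN18S1 share as a covariate. The log2 difference was then 2.75 for MUC2 and 2.50 for MUC3A (limma adjusted p = 0.130). It was 1.37 for MUC5AC (0.462), 1.18 for MUC6 (0.482) and 1.54 for MUC16 (0.108). Mucin genes contain long repeats, and how reads that map to several places were counted is not given in the sources used here. MUC2, MUC5AC and MUC5B are alike in sequence, so the split of reads among them is uncertain.

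Summed over the 13 mucins, the reads, scaled to 1000000 reads on genes, were 29.5, 18.0, 41.6, 26.9 and 75.0 in nc1 to nc5. They were 317, 164, 175, 64.1 and 188 in ko1 to ko5. On this scale, whose total includes RN18S1, the WT embryo nc5 lay above ko4 and below the other 4 SOX2 KO embryos. Summed as normalized read counts, the highest WT embryo, nc5, was at 227 and the lowest SOX2 KO embryo, ko4, at 228. The order of nc5 and ko4 thus depended on the scale. The share of MUC19 in the mucin reads was at most 3.13% in WT, and it lay between 1.90% (ko2) and 12.6% (ko5) in SOX2 KO. The number of mucins with at least 1 read lay between 9 and 12 in WT and between 11 and 13 in SOX2 KO.

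**Figure D4:**
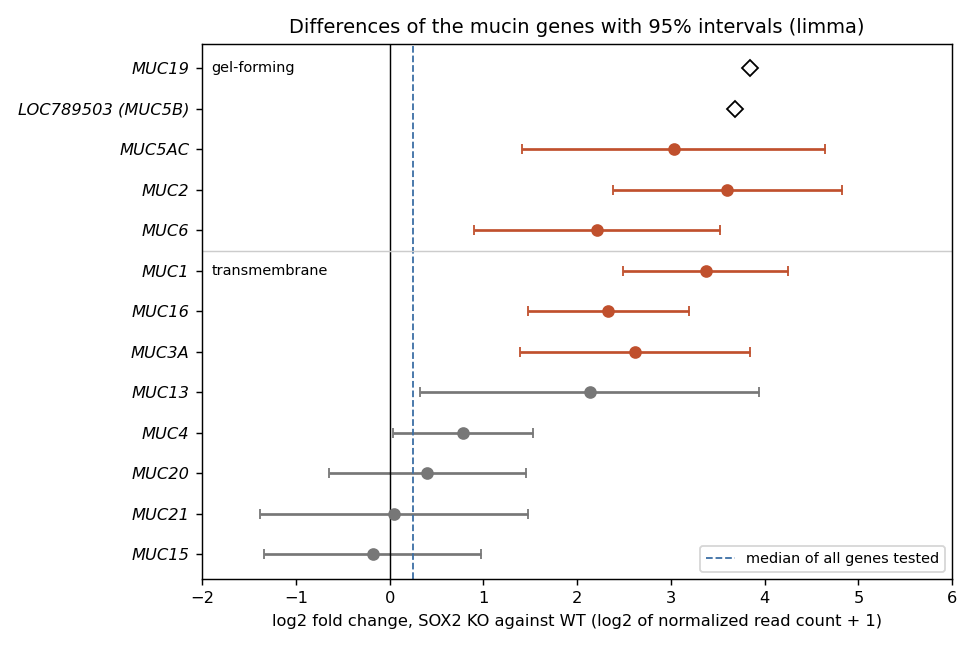
Log2 difference between SOX2 KO and WT on the log2(normalized read count + 1) scale (x axis) of the 13 mucins, with 95% intervals from limma (n = 5 per group); red marks genes called higher, grey marks genes not called, open diamonds mark the 2 genes known beforehand for their rise (value only, no interval), and the dashed line is the median of all genes at 0.25. The 5 gel-forming mucins lie between 2.21 and 3.85, and the intervals of MUC15, MUC20 and MUC21 include 0.

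The likeness of other genes to MUC19 was measured by Pearson's r over the 10 embryos after the mean of each group was subtracted, over the 11333 genes whose mean reached 10. The embryos share library depth and gene detection, so the values are a description. The most alike were CHD5, a chromatin remodeler (r = 0.956), NFASC, a cell adhesion protein (0.941), PDE8B, a phosphodiesterase (0.940), EGR1, an immediate early transcription factor (0.938), and ZC3H12A, an RNase (0.931). CHD5 lay between 4.45 and 13.6 in WT and between 9.86 and 44.5 in SOX2 KO, with ko2 and ko4 the lowest SOX2 KO embryos. EGR1 lay between 17.8 and 73.2 in WT and between 15.6 and 77.3 in SOX2 KO, and its log2 difference between groups was 0.23. Among the 12 other mucins MUC16 (0.862) and MUC5AC (0.838) were the most alike, and 0.432% and 0.671% of the genes had a higher r. MUC6, MUC20 and MUC2 lay between 0.632 and 0.701, with 4.01% to 6.80% of the genes higher. MUC5B, MUC1, MUC4, MUC21, MUC13, MUC3A and MUC15 lay between 0.016 and 0.370, with 23.0% to 48.1% of the genes higher.

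The genes next to MUC19 were read in the RefSeq order of the assembly ARS-UCD2.0, while the reads were mapped to ARS-UCD1.2. LRRK2, a kinase gene and the adjacent gene on 1 side, was 23.6 ± 5.46 in WT and 18.7 ± 4.86 in SOX2 KO (SD, n = 5 each; log2 difference −0.32, limma adjusted p = 0.504). SLC2A13, a transporter gene beyond it, was 5.49 ± 2.57 and 10.3 ± 3.51 (0.81, adjusted p = 0.247). On the other side CNTN1, a neuronal adhesion gene, was 1.10 ± 1.09 and 9.85 ± 10.9 (1.71, adjusted p = 0.122), with 18.9 in ko1, 24.2 in ko5 and 0 to 3.49 in ko2, ko3 and ko4. LOC101905399 followed at 3.19 ± 1.73 and 5.47 ± 0.369 (0.71, adjusted p = 0.319). None of these 4 neighbours was called by limma. CNTN1 (95% interval 0.15 to 3.28) was called by DESeq2 (3.10, adjusted p = 0.0335), by edgeR (2.82, adjusted p = 0.0485) and by limma without ko4 (2.36, adjusted p = 0.0187).

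TRIM46, next to MUC1, lay between 41.3 and 74.8 in WT and between 77.9 and 214 in SOX2 KO, without overlap. Its log2 difference was 0.96 (SE 0.26, limma adjusted p = 0.0213), under the 2-fold limit, and it did not pass without nc2 (0.0520), nc5 (0.0506) or ko5 (0.0532). MUC4 and MUC20 are neighbours of each other, as are MUC5B, MUC5AC and MUC2. Over the 32 neighbours of the mucins that are not mucins themselves, 2 were called higher and 0 lower, beside 8.93% and 1.16% of all genes, and the median log2 difference was 0.50. The 2 were BRSK2, a kinase gene near MUC5B (9.72 ± 5.72 to 22.3 ± 4.71), and LOC512624, a gene near MUC16 that had reads in SOX2 KO alone (2.44 ± 1.26) and so passed the filter only through that group. Both were chosen for naming after their values were seen, and BRSK2 was not called without nc1, nc4, nc5 or any 1 SOX2 KO embryo other than ko4. BRSK2 was also not called with edgeR (adjusted p = 0.0723), and in limma with a pseudocount of 0.1 (0.0548) or the RN18S1 covariate (0.449). The same held after quantile normalization (0.147) and scaling to equal totals, with or without RN18S1 (0.0695 and 0.0540).

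Lists of genes that work with mucins were counted in the same fit. The lists together held 113 genes besides the mucins, of which 13 were called higher (11.5%) and 2 lower, with a median log2 difference of 0.41, beside 8.93%, 1.16% and 0.25 over all genes. Of the 13, 7 had a mean under 1 in WT and passed the filter only through SOX2 KO, as did 840 of the 1792 genes called higher over all genes, so nothing is read from these shares. With the RN18S1 share as a covariate, B4GALT5 and HNF4A kept their calls, and 2 genes in all were called higher and 1 lower. Of 15 other mucin-like proteins, PDPN was called higher. PDPN, or podoplanin, is a sialomucin of epithelial and other cells, and it rose from 828 ± 192 to 1764 ± 532 (log2 difference 1.07, SE 0.20, limma adjusted p = 0.00206), with 0.89 (0.0829) under the RN18S1 covariate.

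Of 19 GALNT enzymes, which attach the first sugar of an O-glycan, 4 were called higher and 0 lower, beside 8.93% and 1.16% of all genes. All 4 passed the filter only through SOX2 KO, so the count is a description. GALNT14 was 0.470 ± 0.452 in WT and 7.08 ± 7.08 in SOX2 KO. GALNT15 was 0.415 ± 0.650 and 4.90 ± 3.56. GALNT18 was 0.398 ± 0.889 and 9.58 ± 8.85, with 20.0 in ko1, 18.4 in ko5 and 2.64 to 3.49 in the other 3. GALNTL6 was 0.155 ± 0.347 and 3.64 ± 2.41 (SD, n = 5 each). GALNT1, GALNT2, GALNT3 and GALNT7, with group means between 148 and 384, had log2 differences of 0.14, 0.37, 0.17 and 0.31 and were not called (limma adjusted p = 0.530, 0.163, 0.507 and 0.129). The call of GALNT14 was lost without nc2, nc4, ko1 or ko5, that of GALNT15 without nc1, nc4, ko1 or ko5, and that of GALNTL6 without nc1, nc2, nc5, ko1, ko3 or ko5.

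Of 21 enzymes that extend O-glycans, 1 was called higher and 0 lower, beside 8.93% and 1.16% of all genes. The 1 was B4GALT5, a galactosyltransferase known mainly for glycolipid synthesis. B4GALT5 was 443, 393, 306, 496 and 383 in nc1 to nc5 and 1105, 774, 678, 1051 and 1372 in ko1 to ko5, without overlap. It rose from 404 ± 70.7 to 996 ± 277 (log2 difference 1.27, SE 0.19, limma adjusted p = 0.000291), and its call held under each of the 23 alternatives. C1GALT1, the core 1 synthase, and its chaperone gene C1GALT1C1 had log2 differences of 0.15 and −0.06 and were not called (limma adjusted p = 0.577 and 0.896).

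Of 23 genes for mucin folding and release, 5 were called higher and 1 lower, beside 8.93% and 1.16% of all genes. DMBT1, a scavenger receptor of mucosal secretions, rose from 2.20 ± 3.26 to 16.1 ± 10.9 (2.56, SE 0.65, limma adjusted p = 0.0155), a call lost without ko5 (0.0556) and with the RN18S1 covariate (1.24, 0.429). UNC13D, which primes secretory granules, rose from 352 ± 213 to 637 ± 122 (1.07, SE 0.31, limma adjusted p = 0.0282), a call lost without nc2, nc4, nc5, ko1, ko3 or ko5. It was also lost with DESeq2 (0.85, adjusted p = 0.0549), with edgeR (0.75, 0.0816) and with the RN18S1 covariate (0.39, 0.612). RAB27A, a GTPase of granule docking, fell from 78.0 ± 17.1 to 37.7 ± 13.9 (−1.08, SE 0.27, limma adjusted p = 0.0147), and with the covariate the difference was −1.27 (0.0829). The other 3 called, ERN2, CFTR and SYT2, had means under 10 in both groups and are named after their values were seen. Their WT means were under 1, so they passed the filter only through SOX2 KO and the count is a description.

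Of 15 transcription factors of secretory epithelia, ELF3 and CREB3L1 were called higher and HNF4A lower, beside 8.93% and 1.16% of all genes. ELF3, an epithelial factor that was also on the trophectoderm list, lay between 29.7 and 114 in WT and between 95.3 and 308 in SOX2 KO, with overlap. It rose from 64.2 ± 31.9 to 185 ± 79.8 (1.54, SE 0.31, limma adjusted p = 0.00379), a call lost with the RN18S1 covariate (0.92, adjusted p = 0.201). CREB3L1 rose from 4.48 ± 3.32 to 14.7 ± 7.83 (1.6, SE 0.53, limma adjusted p = 0.0485), a call lost without any 1 of nc1, nc2, nc4, nc5, ko1, ko3 and ko5, and with the covariate (1.04, 0.488). Its call was also lost with edgeR (adjusted p = 0.0656), and in limma with a pseudocount of 0.1 (0.0671) or a mean of at least 5 (0.0555). The same held after quantile normalization (0.172) and scaling to equal totals, with or without RN18S1 (0.0666 and 0.0589). HNF4A, also on the primitive endoderm list, fell from 94.6 ± 38.3 to 13.0 ± 7.13 (−2.85, SE 0.37, limma adjusted p = 9.09e-05). SPDEF, the factor of goblet cell maturation, was 3.05 ± 1.43 and 4.58 ± 2.99 (0.39, limma adjusted p = 0.657).

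Of 20 partners and proteases of surface mucins, 0 were called in either direction by limma, DESeq2 or edgeR. Over all genes tested, limma called 8.93% higher and 1.16% lower. Of the 20, 4 had an unadjusted p under 0.05, all higher. The share of all genes under that limit was not counted, so nothing is read from the 4. ERBB3, EGFR and the protease gene ST14 passed the adjusted p without reaching a 2-fold difference (0.95, 0.68 and 0.90 on the log2 scale). With the RN18S1 share as a covariate these genes did not pass (limma adjusted p = 0.105, 0.201 and 0.237). ADAM10 and ADAM17, proteases that release ectodomains, had log2 differences of −0.10 and −0.03 and were not called (limma adjusted p = 0.691 and 0.945).

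**Figure D5:**
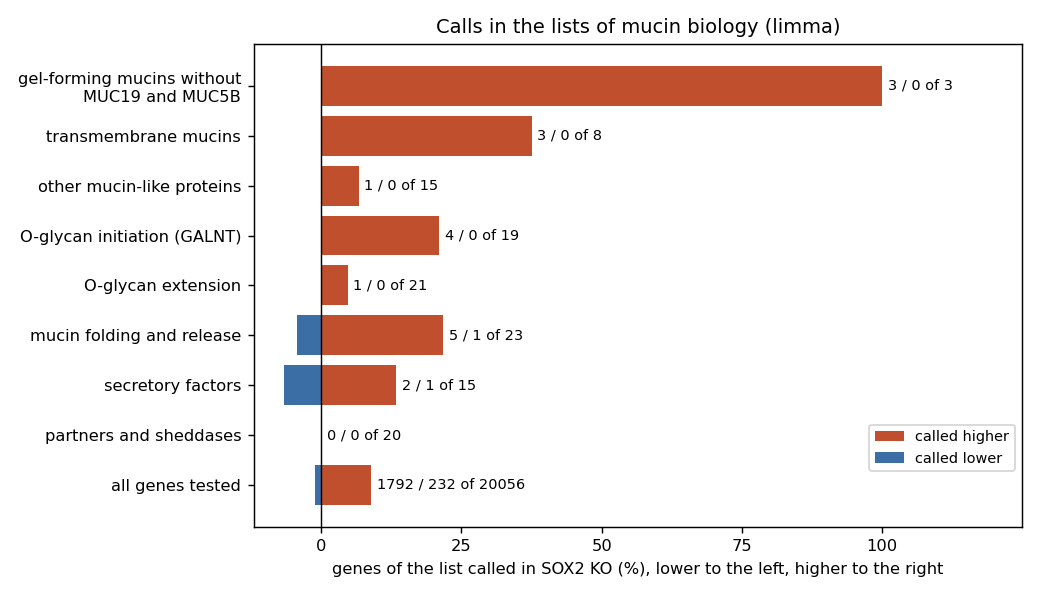
Share of the genes of each list that were called higher (red, to the right) or lower (blue, to the left) in SOX2 KO, in percent (x axis), with the counts called higher / lower of the genes tested beside each bar. The gel-forming mucins are drawn without MUC19 and MUC5B, which were known for their rise. Their bar includes MUC2, which had a mean under 1 in WT. The bar of the O-glycan initiation list rests on such genes alone, and that of the folding and release list in part.

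Markers of cell types that a blastocyst sample could hold were read in the same way. On the goblet and airway list, 12 markers other than the mucins had overlapping sums, of 36.5 to 98.4 per WT embryo and 60.8 to 115 per SOX2 KO embryo. VIL1 was called higher and BPIFA1 lower. TFF3, SPDEF, AGR2 and CLCA1 had means of at most 4.58 in both groups and were not called. FCGBP, which encodes a mucus component, was 3.78 ± 4.27 in WT and 13.9 ± 12.3 in SOX2 KO (log2 difference 1.69, 95% interval 0.28 to 3.09, limma adjusted p = 0.0929). Of all 15 list genes, the mucins included, 12 had a log2 difference above 0, as did 62.9% of all genes tested. On the trophectoderm list 4 of 14 were called higher and 0 lower, and the sums were 26193 to 39235 per WT embryo, against 37162 to 52191 per SOX2 KO embryo. On the epiblast list 0 of 13 were called higher and 6 lower. On the primitive endoderm list 1 of 11 was called higher and 4 lower. Over all genes tested, 8.93% were called higher and 1.16% lower. The part of these cell types in the mucin values was not tested.

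On the cumulus and granulosa list, which marks maternal cells that can adhere to an embryo, 1 of 14 was called higher and 0 lower, with sums of 518 to 2271 per WT embryo, against 1020 to 2619 per SOX2 KO embryo. The defining markers FSHR and CYP19A1 differed by 0.38 and 0.03 on the log2 scale and were not called (limma adjusted p = 0.635 and 0.976). CYP11A1, the side-chain cleavage enzyme of steroid synthesis, was 14.8 to 83.9 per WT embryo, against 402, 331, 359, 1.64 and 228 in ko1 to ko5. Its log2 difference was 1.78 (95% interval −0.19 to 3.74, limma adjusted p = 0.196). In all, 13 of the 14 genes had a log2 difference above 0, and the part of such cells in the mucin values was not tested. NR5A1, the 1 gene of this list called higher, was at 0 in every WT embryo and at 6.53 ± 4.12 in SOX2 KO. It passed the filter only through SOX2 KO, so that count is a description. On the leukocyte list 2 of 11 were called higher and 0 lower. Beside both lists stand 8.93% called higher and 1.16% lower over all genes.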

How the data were processed

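The study made Smart-seq2 libraries from single blastocysts with the zona pellucida removed, by oligo(dT) priming and PCR amplification, and sequenced 150 bp read pairs. Per the labels, the submitters' processing notes name Trimmomatic, HISAT2, featureCounts and DESeq2 with the build ARS-UCD1.2. The authors deposited 1 table of normalized read counts (a signal divided by a DESeq2 size factor). The deposited values were whole multiples of 1 step per column (100% of 201120 values, tolerance 0.0001), which gave the reads behind them. Smart-seq2 carries no molecular identifiers, so counting intervals and the limit of 3 reads set by a count of 0 cover counting error only, and amplification adds to it. Genes with fewer than 11 reads in all were not in the table.

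The columns show the group of an embryo but not its replicate number. From the normalized values, log2(value + 1) was fitted with limma 3.58.1 (trend, two-sided) on all 10 embryos for 20056 genes with a mean of at least 1, with Benjamini-Hochberg adjustment over all of them. Genes were called at an adjusted p of at most 0.05 and at least a 2-fold difference. DESeq2 1.42.0 and edgeR 4.0.16 (quasi-likelihood) served as alternatives on the recovered reads (R 4.3.3). The code was tested on simulated data. No batch is given for the embryos, and p-values measure the spread between these embryos. Named genes were the mucins, the called genes of each list (for a list with more than 4 called, the 4 largest with a mean of at least 10), the 5 genes most like MUC19 and the 2 nearest genes of the table on each side of it, beside SOX2, RN18S1 and defining markers. The members and lists were chosen with earlier results of these data known. RefSeq (ARS-UCD2.0) gave names and gene order only.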

Additional observations from a re-analysis of the deposited data

Results flagged for a closer look

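MUC13 in the WT embryo nc5 stood far from its group at 69.6, with the next WT embryo at 9.92. MUC2 in the WT embryo nc3 also stood apart, at 2.98 (3 reads) with the next at 0.777. These were 2 of the 32 groups of 5 embryos examined, where chance alone marks about 1 in 20, or 1.6.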

How the results depend on the processing

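No paired analysis was possible because the embryos of the table carry no replicate number that matches the labels. Over all genes, 1792 were called higher and 232 lower. The count higher was 1002 with a pseudocount of 5, 638 after quantile normalization, 806 with a mean of at least 5, 137 with the RN18S1 share as a covariate, 3229 with sample quality weights, and 754 (without ko5) to 3050 (without ko4) when 1 embryo was left out. The count lower was 469, 83 and 641 after quantile normalization, with the covariate and with no threshold on the fold change. Members other than MUC19 called higher (2) were 1 with the covariate and 2 to 4 with 1 embryo left out (4 without ko4). Mucins other than MUC19 and MUC5B called higher (6) were 1 with the covariate and 4 (without ko1) to 8 (without ko4) with 1 embryo left out. The lists without the mucins (13 higher, 2 lower) gave 7 higher after quantile normalization, 5 with a mean of at least 5, 2 with the covariate, 23 with quality weights, 20 with no threshold on the fold change, and 4 (without ko5) to 21 (without ko4) with 1 embryo left out. Their count lower was 1 with a pseudocount of 5, median ratio scaling, the covariate and quality weights, and 1 to 2 with 1 embryo left out.

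MUC21 turned to −0.91 with a pseudocount of 0.1 and −0.66 after quantile normalization, and ranged from −0.46 to 0.50 with 1 embryo left out (−0.05 without nc1, −0.06 without nc2, −0.16 without ko2, −0.12 without ko3). MUC20 turned to −0.048 with DESeq2, −0.18 with edgeR and −0.048 with the covariate, and ranged from −0.051 (without nc2) to 0.75 with 1 embryo left out. MUC15 turned to 0.0095 with the covariate and ranged from −0.49 to 0.13 (without ko5), and LOC101905399 to −0.20 after quantile normalization. MUC4 also passed with quality weights (1.09, adjusted p = 0.0303). The causes were not tested. The RN18S1 share was higher on average in SOX2 KO, so the covariate fit cannot fully tell the share and the group apart. In that fit some differences shrank, such as that of MUC16, and others grew, such as that of HNF4A. With a mean of at least 5, MUC15 and MUC21 were not tested. Mucins with fewer than 20 reads in WT, MUC19 included, are limited by depth.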
